A study of Gallus gallus with 9 samples.

Results

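The TGF-beta ligand genes TGFB1, TGFB2 and TGFB3, the activin subunit gene INHBA, the activin receptor gene ACVR2B, and SMAD7, ID1, ID2, ID3 and ID4, genes that respond to signals of this family, were followed in preadipocytes, the precursors of fat cells, from the abdominal fat of laying hens. The members were the probe sets whose only gene symbol in the platform annotation was one of these 10. There were 17 of them among 38535 on the array, and every member gene had at least 1. Confluent cells had been given an adipogenic cocktail, named DMIOA in the labels, with 10 uM retinoic acid, or DMIOA alone, or had been left untreated (control). Each group held 3 arrays, 9 in all, numbered as biological replicates 1 to 3. The labels expand neither DMIOA nor the source hen or culture of a replicate, so each p-value here reflects only how far these samples differ among themselves. The titles of the DMIOA and control samples end in "(2)" and those with retinoic acid do not; no label used here says what that means, and whatever it stands for cannot be told apart from retinoic acid in both comparisons that involve it.

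TGF-beta ligands are secreted in a latent form and, once released, bring a type II and a type I receptor kinase together on the cell surface. TGF-betas and activins act mainly through SMAD2 and SMAD3, and bone morphogenetic proteins (BMPs) through SMAD1, SMAD5 and SMAD9. SMAD7 is an inhibitory SMAD that these signals induce and that blocks the receptors in turn. The ID genes encode helix-loop-helix proteins without a DNA-binding region, which hold back bHLH transcription factors, and are best known as BMP targets. In mammalian preadipocytes TGF-beta is a known inhibitor of fat cell differentiation, and activin A, a dimer of the INHBA product, is known to keep human adipose progenitors proliferating. Retinoic acid, made from vitamin A and sensed by nuclear receptors (RARs), also holds back adipogenesis in mammalian cell models. In chicken, TGFB1 is the gene once named TGF-beta4.

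All levels are log2 expression values per probe set that the authors made with GCRMA, and a log2 difference of 1 is a 2-fold change. Values below 5 are marked as such, since signal near background has no dependable order there. Of the 17 member probe sets 13 reached 5 on at least 3 arrays and were tested, at least 1 for each of the 10 genes, among 12329 tested in all. The other 4 stayed below 5 on all 9 arrays: 2 of SMAD7, with highest values of 4.53 and 1.86, and 2 of ID2, with highest values of 2.35 and 1.57. In bulk RNA, fewer cells of a type and less RNA per cell cannot be told apart.

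Of 9 mesenchymal marker genes 8 stood above 5 on every array, and PDGFRA did not exceed 3.53. Of 7 adipocyte markers 3 to 4 reached 5 on each array: FABP4 ran from 6.26 to 12.96, PPARG from 6.91 to 10.41, CIDEC from 3.59 to 9.75 and LPL from 3.91 to 8.18, while CEBPA, PLIN1 and ADIPOQ stayed below 5 everywhere. The mean linear signal of the 7 in replicates 1, 2 and 3 was 70.6, 71.2 and 762.6 with DMIOA plus retinoic acid and 352.6, 1326 and 1228 with DMIOA. In control it was 405, 347.7 and 174.4. The part of this signal in the results was not tested. Replicate 3 stood apart in all 3 groups. Of 15 macrophage and leukocyte markers, 11 to 13 reached 5 in replicate 3, against 1 to 3 in replicates 1 and 2, and their median lay at 6.33 with DMIOA plus retinoic acid, 7.89 with DMIOA and 9.49 in control there, against 2.16 to 2.34 in the other 6 arrays. The mean linear signal of this list ran from 10.7 to 301.6 with DMIOA plus retinoic acid, from 9.08 to 473.5 with DMIOA and from 13.5 to 855 in control, the highest value being that of replicate 3 in each group, and MRC1 and IL10RA were below 5 everywhere. The mean linear signal of 7 endothelial markers was 267.4 to 304.6 in replicate 3 and 37.2 to 81.7 in the other arrays, with CDH5 at 10.82 to 10.93 and 7.82 to 8.98. Of this list CDH5 alone stood apart there. PECAM1 overlapped (5.31 to 7.42 in replicate 3, 3.83 to 7.11 in the others), and VWF, TIE1, KDR, TEK and EMCN stayed below 5 everywhere. Across probe sets, replicates 1 and 2 correlated at r = 0.997 with DMIOA plus retinoic acid, 0.963 with DMIOA and 0.995 in control, and replicate 3 with its own group at 0.912 to 0.931. If the close pairs were not separate cultures, the p-values would be too small. Between groups, DMIOA replicate 1 correlated with control replicates 1 and 2 at r = 0.981 and 0.979, and DMIOA replicate 2 at 0.946 and 0.9495. DMIOA replicate 3 correlated with control replicate 3 at 0.974. DMIOA replicates 1 and 3 were thus each closer to control arrays than to the other DMIOA arrays.

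**Figure D1:**
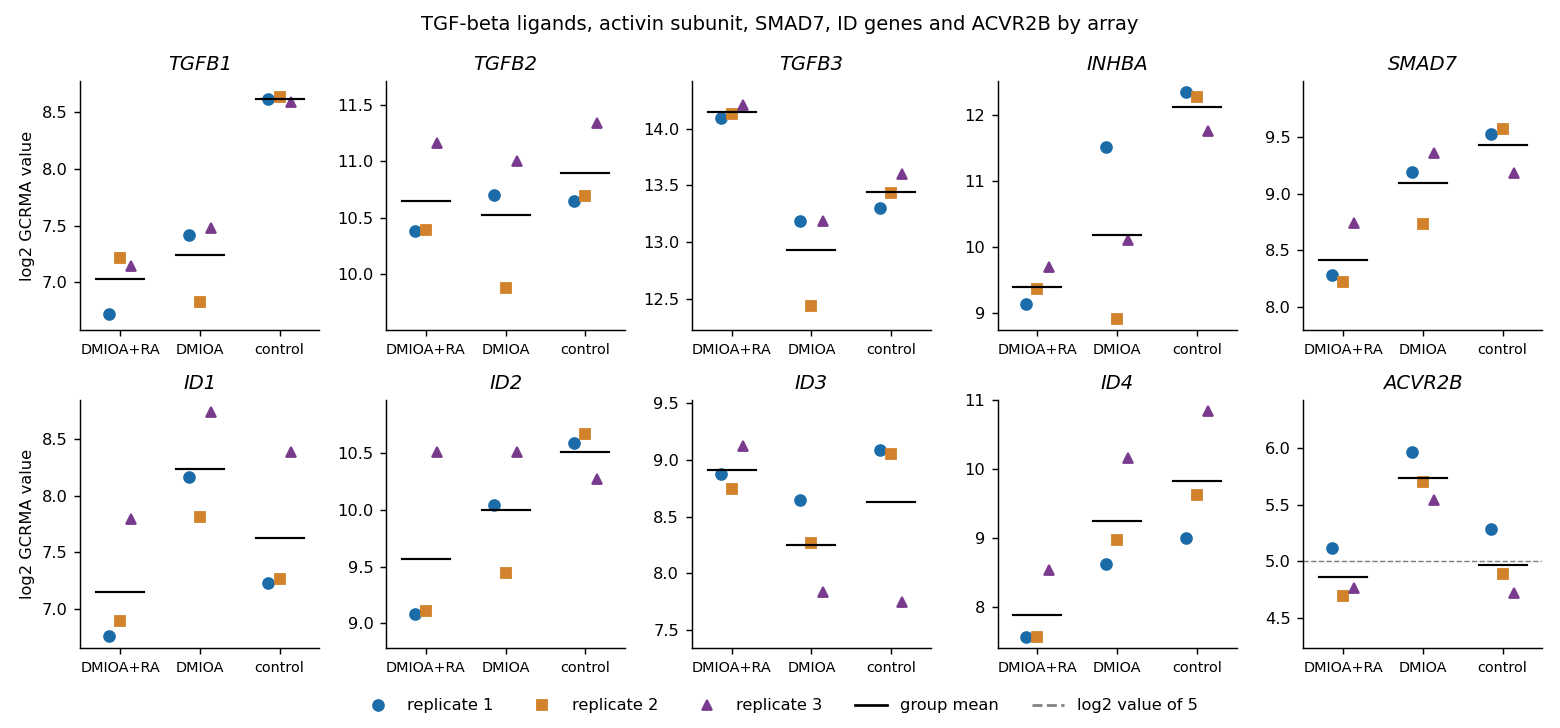
Log2 GCRMA values (vertical axis, a separate range in each panel) of the 10 member genes on each array, with the probe set of highest mean standing for a gene. Points are arrays, with their shape and colour giving the replicate number, bars are group means, and the dashed line in the ACVR2B panel is a log2 value of 5. TGFB3 was highest with DMIOA plus retinoic acid, TGFB1 and INHBA were highest in control, and replicate 3 lay apart from replicates 1 and 2 for several ID genes.

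Between DMIOA plus retinoic acid and DMIOA, limma called 2 of the 13 member probe sets at a Benjamini-Hochberg adjusted p under 0.05, both of TGFB3 and both higher, where 3.89% of all tested probe sets were called (2.12% higher, 1.77% lower). Over all probe sets that is 261 higher and 218 lower, and after cyclic loess of the arrays it was 228 higher and 251 lower. With the replicate number as a block it called 5, 2 higher and 3 lower (ID1, ID4 and ACVR2B), where 10.8% of all were called (5.56% higher, 5.27% lower). Between DMIOA and control it called 0 (6 had an unadjusted p under 0.05), where 0.146% of all were called (0.0487% higher, 0.0973% lower), and with the block 2, ACVR2B higher and TGFB1 lower, where 1.29% were called (0.495% higher, 0.795% lower). ACVR2B passed the filter only through its DMIOA arrays, so its call in either comparison is read as no result. Between DMIOA plus retinoic acid and control it called 5, 1 of TGFB3 higher and 4 lower (2 of INHBA, 1 of TGFB1 and 1 of SMAD7), where 13.2% of all were called (6.74% higher, 6.42% lower). In counts that is 831 higher and 792 lower, and after cyclic loess of the arrays it was 612 higher and 935 lower. With the block it called 8 there, 2 higher and 6 lower, where 28.8% were called (15.8% higher, 13.0% lower). The median log2 difference of the 13 probe sets was -0.68, -0.51 and -0.95 in these 3 comparisons, against 0.04, 0.02 and 0.08 over all tested. The comparisons share arrays, so their values stand side by side and are not independent, and several probe sets measure the same gene.

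**Figure D2:**
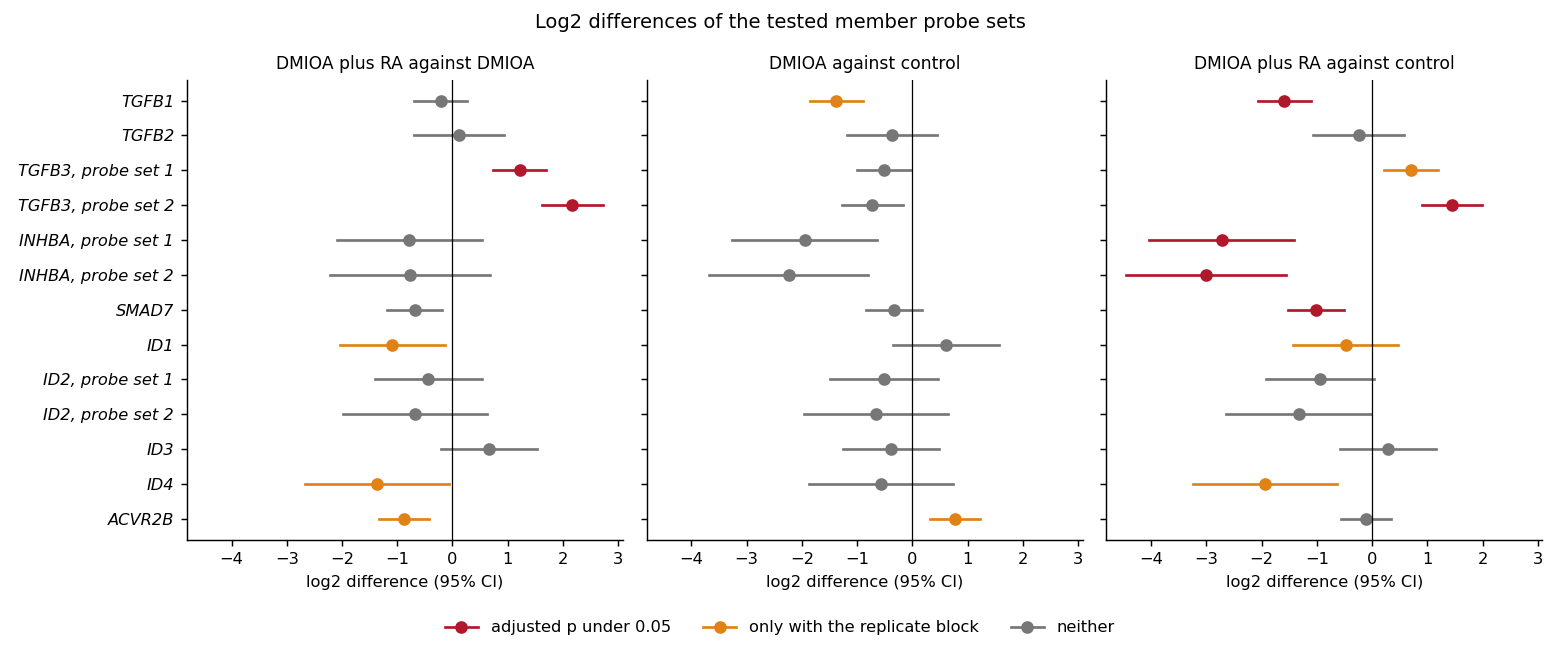
Log2 differences (horizontal axis) of the 13 tested member probe sets in the 3 comparisons. Points are differences and lines are 95% confidence intervals from the fit without a block; colour shows whether the adjusted p was under 0.05 in that fit, only with the replicate block, or in neither; for ACVR2B, kept through its DMIOA arrays alone, the colour is read as no result. Both TGFB3 probe sets and that of ID3 lay above 0 in both comparisons with retinoic acid. Those of TGFB1, INHBA, SMAD7, ID2 and ID4 lay below 0 in all 3 comparisons. Several of these intervals crossed 0.

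Of the ligands, TGFB3 (gene ID 396438) was the one that rose with retinoic acid. This isoform is known for its part in palate and wound tissue and in chondrogenesis. Its first probe set, that of higher mean, stood at 14.10, 14.13 and 14.21 in replicates 1, 2 and 3 with DMIOA plus retinoic acid, at 13.18, 12.43 and 13.18 with DMIOA and at 13.30, 13.43 and 13.60 in control. The 3 retinoic acid arrays were the highest of the 9 and lay close together, the DMIOA arrays were the lowest, and no 2 groups overlapped. Groups that do not overlap were found for 22.0% of all tested probe sets when DMIOA plus retinoic acid was set against DMIOA, 15.5% between DMIOA and control and 38.6% between DMIOA plus retinoic acid and control. The log2 difference between DMIOA plus retinoic acid and DMIOA was 1.22 ± 0.21 (SE), a 2.32-fold rise (limma adjusted p = 0.0206). Leaving out replicate 1 or replicate 2 of the retinoic acid group lost the call (adjusted p up to 0.0911), as did fitting only these 2 groups (0.0731).

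The second TGFB3 probe set moved further. It stood at 13.13, 13.18 and 12.97 with DMIOA plus retinoic acid, at 11.10, 10.35 and 11.31 with DMIOA and at 11.49, 11.69 and 11.77 in control. Again the groups did not overlap, with retinoic acid on top and DMIOA lowest. The rise over DMIOA was 4.51-fold (log2 2.17 ± 0.24, limma adjusted p = 0.00344) and held without any 1 of the 9 arrays (0.00186 to 0.0259). Against control the rise was 2.72-fold (1.45 ± 0.24, adjusted p = 0.00865), which also held without any 1 array, while the first probe set had 0.70 ± 0.21 there (adjusted p = 0.0647, blocked 0.0341, the blocked call being lost without any 1 of 7 of the 9 arrays). Between DMIOA and control both had lower means with DMIOA, by log2 differences of -0.51 ± 0.21 and -0.73 ± 0.24 (adjusted p = 0.409 and 0.297). The first probe set exceeded the second by 0.95 to 1.25 with DMIOA plus retinoic acid, 1.87 to 2.08 with DMIOA and 1.75 to 1.83 in control, so the size of the TGFB3 change depends on the probe set while its direction does not. The names of both carry the platform's mark for probe sets that can match several transcripts.

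**Figure D3:**
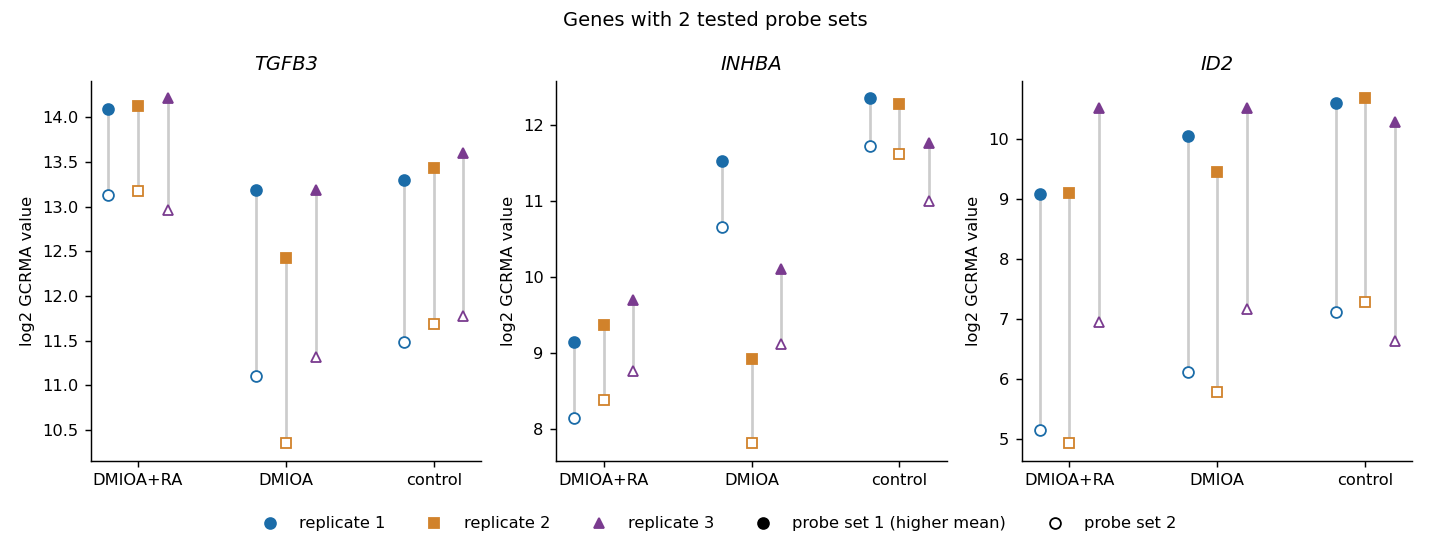
Log2 GCRMA values (vertical axis) of the 2 tested probe sets of TGFB3, INHBA and ID2 on each array. Filled symbols are the probe set of higher mean, open symbols the other, and a grey line joins the 2 values of an array. The TGFB3 pair lay closer together with DMIOA plus retinoic acid (0.95 to 1.25 apart) than with DMIOA (1.87 to 2.08) or in control (1.75 to 1.83), and both probe sets of INHBA and of ID2 showed the same order of groups.

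TGFB1 (gene ID 100873157), the most widely studied ligand of the family, was lower in the treated than in the control arrays. Its probe set stood at 6.72, 7.21 and 7.14 with DMIOA plus retinoic acid, at 7.42, 6.82 and 7.48 with DMIOA and at 8.62, 8.63 and 8.59 in control. The control arrays were nearly identical (mean 8.62 ± 0.02, SD, n = 3) and lay above all 6 treated arrays, while the treated groups overlapped. With DMIOA plus retinoic acid TGFB1 was 3.01-fold lower than in control (log2 -1.59 ± 0.21, limma adjusted p = 0.00337), and the call held without any 1 array (0.00212 to 0.0209). With DMIOA alone the difference from control was -1.38 ± 0.21 (adjusted p = 0.0626, blocked 0.0470), and the blocked call was lost when any array but retinoic acid replicate 3 was left out (up to 0.238). Between the 2 treated groups the difference was -0.22, with a 95% confidence interval of -0.69 to 0.26 (adjusted p = 0.698).

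TGFB2 (gene ID 421352) passed the test in no comparison, with or without the block. Of the alternative settings, array weights alone called it, between DMIOA plus retinoic acid and control (limma adjusted p = 0.0458). That setting called 8317 of the 12329 tested probe sets there. TGFB2 stood at 10.38, 10.395 and 11.16 with DMIOA plus retinoic acid, at 10.70, 9.87 and 10.999 with DMIOA and at 10.65, 10.69 and 11.34 in control. All 3 groups overlapped, and replicate 3 was the highest array in each, by 0.77, 0.71 and 0.67 over the mean of replicates 1 and 2 in the same order of groups. The differences were 0.12 between DMIOA plus retinoic acid and DMIOA (95% interval -0.70 to 0.93), -0.37 between DMIOA and control (-1.18 to 0.45) and -0.25 between DMIOA plus retinoic acid and control (-1.06 to 0.57). The first of these turned negative without DMIOA replicate 2, to -0.21.

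INHBA (gene ID 396361), the beta A subunit shared by activin A and inhibin A, showed the widest spread of the members. Its first probe set stood at 9.14, 9.36 and 9.69 with DMIOA plus retinoic acid, at 11.52, 8.92 and 10.11 with DMIOA and at 12.35, 12.28 and 11.76 in control. Control was highest on all 3 arrays, and the DMIOA arrays lay far apart, with replicate 2 below every retinoic acid array. The second probe set gave 8.15, 8.39 and 8.77 with DMIOA plus retinoic acid, 10.66, 7.82 and 9.12 with DMIOA and 11.72, 11.61 and 10.99 in control, and followed the first over the 9 arrays at r = 0.999. Both probe sets thus rank the arrays alike.

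With DMIOA plus retinoic acid INHBA was 6.62-fold lower than in control by the first probe set (log2 -2.73 ± 0.57, limma adjusted p = 0.0205) and 8.04-fold lower by the second (-3.01 ± 0.63, adjusted p = 0.0203). Both calls were lost without any 1 of replicates 1 and 2 of either group (adjusted p reached 0.0809 and 0.0798). With DMIOA alone the differences from control were -1.94 ± 0.57 and -2.24 ± 0.63 (adjusted p = 0.259 and 0.238), with -0.82, -3.36 and -1.65 in replicates 1, 2 and 3 by the first probe set. Between DMIOA plus retinoic acid and DMIOA the first probe set had -0.78 (95% interval -2.10 to 0.53, adjusted p = 0.579). By replicate number that difference was -2.38, 0.45 and -0.42, so its direction changed with the DMIOA array.

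ACVR2B (gene ID 374213), a type II receptor that binds activins and myostatin, lay near the lower limit of 5. It stood at 5.12, 4.70 and 4.76 with DMIOA plus retinoic acid, at 5.96, 5.70 and 5.54 with DMIOA and at 5.29, 4.89 and 4.72 in control, where 2 retinoic acid arrays and 2 control arrays were below 5. The DMIOA arrays were the 3 highest. Only 2 of the other 6 arrays reached 5, so ACVR2B passed the filter through the DMIOA arrays alone, and its differences from that group are given as a description, with no test. With 5 in place of the lower values, ACVR2B was at least 1.62-fold lower with DMIOA plus retinoic acid than with DMIOA, and at least 1.56-fold higher with DMIOA than in control. By replicate number the log2 differences were -0.84, -1.01 and -0.78 in the first of these and 0.68, 0.81 and 0.82 in the second. Between DMIOA plus retinoic acid and control the log2 difference was -0.11 (95% interval -0.56 to 0.35).

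SMAD7 (gene ID 429683), the inhibitory SMAD, had the lowest values with retinoic acid. Its tested probe set stood at 8.28, 8.22 and 8.74 with DMIOA plus retinoic acid, at 9.19, 8.73 and 9.36 with DMIOA and at 9.53, 9.57 and 9.18 in control. The retinoic acid arrays lay below all control arrays, and retinoic acid replicate 3 lay just above the lowest DMIOA array. Against control SMAD7 was 2.02-fold lower with DMIOA plus retinoic acid (log2 -1.01 ± 0.22, limma adjusted p = 0.0217), a call lost without control replicate 1 or 2 or retinoic acid replicate 1 or 2 (up to 0.0895). The difference was -1.25, -1.35 and -0.44 in replicates 1, 2 and 3. Against DMIOA it was -0.68 ± 0.22 (adjusted p = 0.152), and between DMIOA and control -0.33 ± 0.22 (adjusted p = 0.612).

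The ID genes did not move as one group. ID4 and ID1 were lower with retinoic acid than with DMIOA alone in each replicate number, the differences of ID2 from DMIOA were nearest 0 in replicate 3 (0.00 and -0.21 by its probe sets), and ID3 had a higher mean with retinoic acid than with DMIOA. Each group's replicate 3 stood above its other replicates for ID1 and ID4. With all 9 arrays weighted alike, no ID probe set was called without the block, and those of ID1 and ID4 were called with it. Without the block, ID1, ID2 and ID4 were called in some comparisons with replicates 1 and 2 alone or with array weights. Most of the macrophage and leukocyte markers and the endothelial marker CDH5 were also higher in replicate 3, and their part in the ID values was not tested.

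ID4 (gene ID 374150) stood at 7.56, 7.56 and 8.53 with DMIOA plus retinoic acid, at 8.62, 8.97 and 10.16 with DMIOA and at 9.004, 9.63 and 10.85 in control. The retinoic acid arrays were the 3 lowest of the 9, without overlap with either group, and replicate 3 exceeded the mean of replicates 1 and 2 by 0.97, 1.37 and 1.53 in that order of groups. Between DMIOA plus retinoic acid and DMIOA the log2 difference was -1.36 ± 0.56 (limma adjusted p = 0.282, blocked 0.00725), with -1.06, -1.40 and -1.63 in replicates 1, 2 and 3. Against control it was -1.94 ± 0.56 (adjusted p = 0.0595, blocked 0.00134). Both blocked calls held without any 1 array (adjusted p up to 0.0467 and 0.0125). With replicates 1 and 2 alone the differences were -1.23 (limma adjusted p = 0.0362) and -1.75 (adjusted p = 0.00828). That setting called 1517 and 3620 of the 12329 tested probe sets in these comparisons. Its p-values are too small if the closely alike replicates 1 and 2 were not separate cultures.

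ID1 (gene ID 395282) stood at 6.76, 6.90 and 7.79 with DMIOA plus retinoic acid, at 8.17, 7.81 and 8.74 with DMIOA and at 7.23, 7.27 and 8.39 in control. Within each replicate number DMIOA was highest, control between and DMIOA plus retinoic acid lowest. The retinoic acid and DMIOA arrays did not overlap, with the highest of the first just under the lowest of the second. The log2 difference between them was -1.09 ± 0.41 (limma adjusted p = 0.232, blocked 0.00781), which held in the blocked fit without any 1 array (up to 0.0480) and had adjusted p = 0.0135 with replicates 1 and 2 alone. The latter setting called 1517 of the 12329 tested probe sets, and the limit given for ID4 holds here too. Against control ID1 had -0.48 ± 0.41 with DMIOA plus retinoic acid (adjusted p = 0.486, blocked 0.0459), a blocked call lost when any array but DMIOA replicate 1 was left out (up to 0.178). Between DMIOA and control it had 0.61 ± 0.41 (adjusted p = 0.629, blocked 0.0952).

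ID2 (gene ID 395852) was where replicate 3 mattered most. Its first probe set stood at 9.08, 9.10 and 10.51 with DMIOA plus retinoic acid, at 10.05, 9.44 and 10.51 with DMIOA and at 10.59, 10.67 and 10.27 in control. Replicates 1 and 2 with retinoic acid were the lowest of the 9 arrays, and replicate 3 lay within the range of the control arrays. Over all arrays the log2 difference between DMIOA plus retinoic acid and control was -0.95 ± 0.42 (limma adjusted p = 0.174, blocked 0.0978). With replicates 1 and 2 alone it was -1.54 (adjusted p = 0.00825), and by the second probe set -2.16 (adjusted p = 0.00199), where one of the retinoic acid arrays, at 4.93, was below 5. That setting called 3620 of the 12329 tested probe sets. Its replicates correlated at r = 0.997 with DMIOA plus retinoic acid and 0.995 in control, and its p-values are too small if these were not separate cultures. The second probe set followed the first over the 9 arrays at r = 0.985. In replicate 3 the differences were 0.24 and 0.32, and the part of the leukocyte marker and CDH5 levels in this was not tested.

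ID3 (gene ID 395281) passed the test in no comparison. It stood at 8.87, 8.74 and 9.12 with DMIOA plus retinoic acid, at 8.64, 8.27 and 7.83 with DMIOA and at 9.09, 9.05 and 7.74 in control. The retinoic acid arrays lay above all DMIOA arrays, and control replicate 3 was the lowest of the 9. Between DMIOA plus retinoic acid and DMIOA the log2 difference was 0.67 (95% interval -0.20 to 1.53, limma adjusted p = 0.448), with 0.23, 0.47 and 1.29 in replicates 1, 2 and 3. Against control it was 0.28 over all arrays and -0.26 with replicates 1 and 2 alone.

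**Figure D4:**
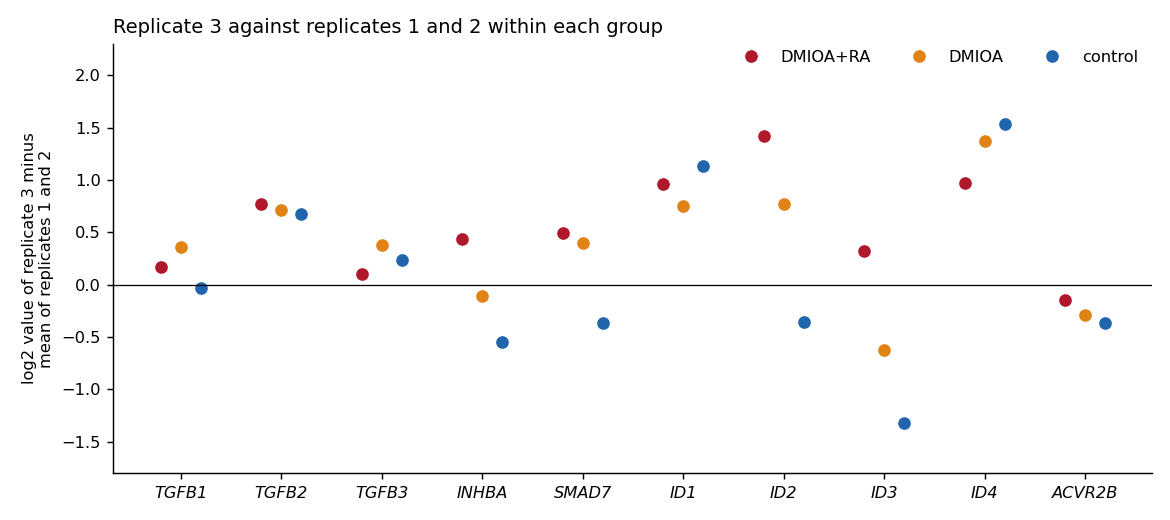
Log2 value of replicate 3 minus the mean of replicates 1 and 2 (vertical axis) for each member gene, by its probe set of highest mean, with colour giving the group. ID1, ID4 and TGFB2 were higher in replicate 3 in all 3 groups (0.67 to 1.53), and TGFB3 was too, by less (0.10 to 0.38). ID2 and ID3 were higher there with DMIOA plus retinoic acid (1.42 and 0.32) and lower there in control (-0.36 and -1.33). So were INHBA (0.44 and -0.55), SMAD7 (0.49 and -0.37) and, by little, TGFB1 (0.17 and -0.03).

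The other genes of the TGF-beta and BMP pathways were read from a list of 81, of which 68 had probe sets with a single symbol and 41 were tested, each by its probe set of highest mean. Of these 41, 2 rose and 3 fell between DMIOA plus retinoic acid and DMIOA (with the block, 3 and 5), 0 rose and 1 fell between DMIOA and control (with the block, 0 and 2; 6 had an unadjusted p under 0.05), and 2 rose and 7 fell between DMIOA plus retinoic acid and control (with the block, 3 and 12). Over all tested probe sets 3.89%, 0.146% and 13.2% were called in these comparisons, and 10.8%, 1.29% and 28.8% with the block. BGN, kept through its control arrays alone, is among the 7 and 12 falls of the last comparison. It is also among the 2 blocked falls between DMIOA and control, and its calls are read as no result. CHRD, kept through its DMIOA and control arrays alone, is likewise among the 7 and 12 falls of the last comparison. It is also among the 5 blocked falls of the first, and its calls are read as no result too. The medians of the 41 differences were 0.00, -0.16 and -0.19 in the same order. Most of the receptors gave little signal: 8 of the 10 with a probe set were not tested, among them TGFBR2, the type II receptor of TGF-beta, with a highest value of 2.80, and the BMP receptor BMPR2, with 5.48. Of the 2 tested, TGFBR1, the type I receptor, stood at 11.53 ± 0.06 with DMIOA plus retinoic acid, 11.32 ± 0.32 with DMIOA and 11.23 ± 0.22 in control (SD, n = 3), and the activin receptor gene ACVR2A had differences of -0.07, 0.40 and 0.32, none of which passed the test. No level here says whether the protein was present.

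**Figure D5:**
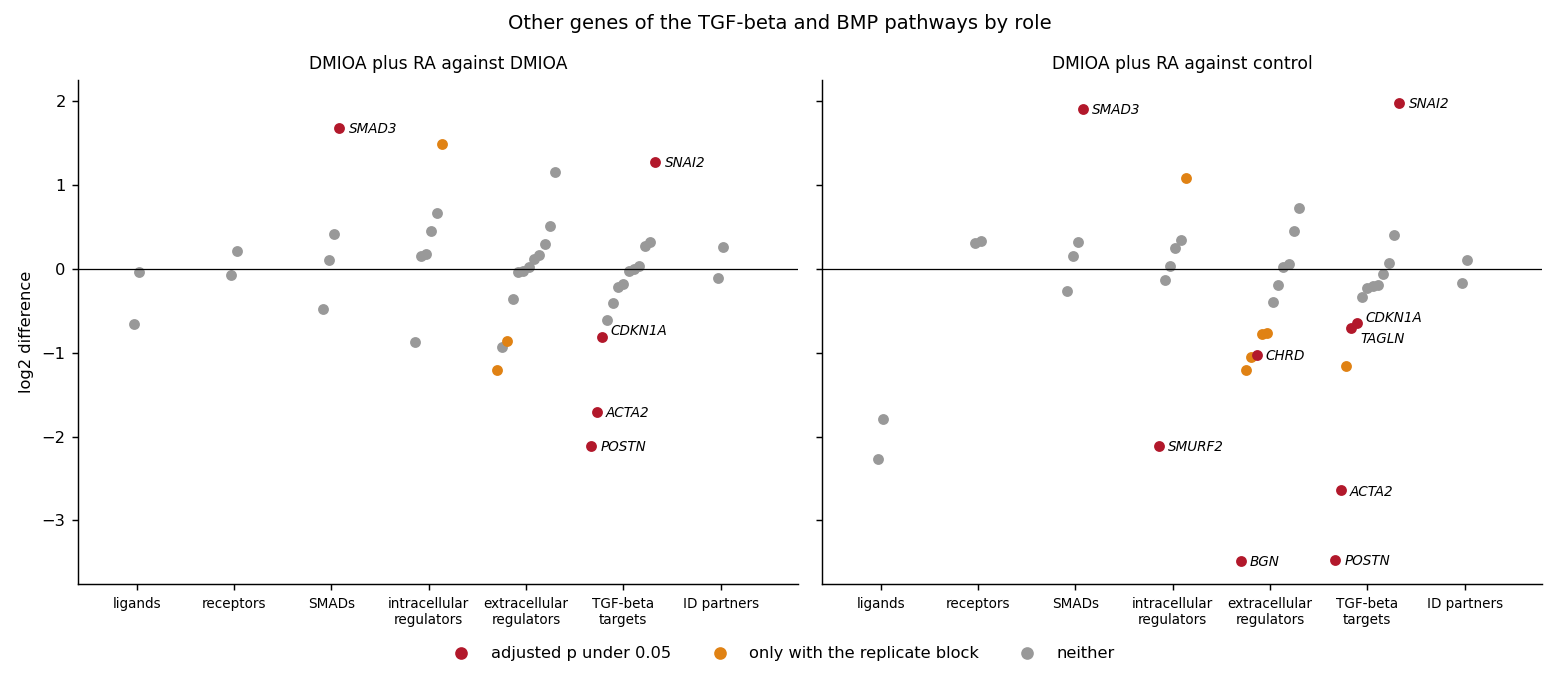
Log2 differences (vertical axis) of the 41 tested pathway genes by role, for DMIOA plus retinoic acid against DMIOA (left) and against control (right). Each point is a gene, coloured by whether its adjusted p was under 0.05 without the block, only with it, or in neither fit. The genes called without it are named. BGN was kept through its control arrays alone and CHRD through its DMIOA and control arrays alone, so their colours are read as no result. SMAD3 and SNAI2 were called higher in both panels, and ACTA2, POSTN and CDKN1A were called lower in both.

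Among the SMADs, SMAD3, which carries TGF-beta and activin signals to the nucleus, rose with retinoic acid. It stood at 11.07, 11.09 and 11.25 with DMIOA plus retinoic acid, at 9.10, 9.56 and 9.72 with DMIOA and at 8.92, 8.98 and 9.78 in control. The retinoic acid arrays lay above all others, and DMIOA and control overlapped. The rise was 3.20-fold over DMIOA (log2 1.68 ± 0.26, limma adjusted p = 0.0122, lost without retinoic acid replicate 1 or 2) and 3.75-fold over control (1.91 ± 0.26, adjusted p = 0.00387). SMAD2, which carries the same signals, had -0.48 and -0.27 in these comparisons and did not pass the test, and the inhibitory SMAD6 had 0.42 and 0.16 and did not pass it either. SMURF2, a ubiquitin ligase that works with SMAD7 on the receptors, fell 4.31-fold between DMIOA plus retinoic acid and control (limma adjusted p = 0.0107). Its log2 difference was -0.88 between DMIOA plus retinoic acid and DMIOA (adjusted p = 0.291, blocked 0.154). Between DMIOA and control it was -1.23 (adjusted p = 0.266, blocked 0.125), so neither of these steps passed the test. TGIF1, a SMAD corepressor, was called with the block only, with 1.48 over DMIOA (adjusted p = 0.0815, blocked 0.00377) and 1.08 over control (adjusted p = 0.104, blocked 0.00496).

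Of 13 tested TGF-beta targets, 1 rose and 3 fell between DMIOA plus retinoic acid and DMIOA. Between DMIOA and control 0 rose and 1 fell, and between DMIOA plus retinoic acid and control 1 rose and 4 fell. Over all tested probe sets 3.89%, 0.146% and 13.2% were called in this order. SNAI2 was the only target called higher, and most of the 13 were not called in any one comparison. ACTA2, the smooth muscle actin gene, stood at 5.87, 6.28 and 6.16 with DMIOA plus retinoic acid, at 8.48, 7.17 and 7.78 with DMIOA and at 8.79, 8.80 and 8.66 in control. It fell 3.27-fold against DMIOA (limma adjusted p = 0.0208, lost without DMIOA replicate 3 or retinoic acid replicate 1 or 2) and 6.25-fold against control (adjusted p = 0.00216). SNAI2, a transcription factor of mesenchymal cells, rose 2.41-fold over DMIOA (adjusted p = 0.0431, lost without any 1 of 7 of the 9 arrays) and 3.94-fold over control (adjusted p = 0.00402). CDKN1A, a cell cycle inhibitor gene, fell 1.75-fold and 1.57-fold in these comparisons (adjusted p = 0.0263 and 0.0283), the first call lost without any 1 of 6 arrays and the second without any 1 of 4. Periostin, POSTN, was lower in each of the 3 comparisons, with -2.11, -1.36 and -3.47 in the order used above, and the call between DMIOA and control (adjusted p = 0.0129) was lost without control replicate 1 or 2, DMIOA replicate 2 or retinoic acid replicate 1 or 2. A second POSTN probe set moved further, with -2.415, -2.195 and -4.61 (limma adjusted p = 0.000829, 0.0171 and 3.23e-05). TAGLN, the transgelin gene, fell 1.63-fold against control with DMIOA plus retinoic acid (adjusted p = 0.0312, lost without any 1 of the control or retinoic acid arrays). CCN2, a matricellular target formerly named CTGF, had -0.03, -0.20 and -0.23 and did not pass the test.

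Of 12 tested extracellular regulators, 2 were called without the block, both lower with DMIOA plus retinoic acid than in control. Over all tested probe sets 13.2% were called in that comparison (6.42% lower). With the block 6 of the 12 were called there, all lower, where 28.8% of all were called (13.0% lower). BGN and CHRD are the 2 called without the block, and both are among the 6. BGN, a proteoglycan that binds TGF-beta, stood at 3.52, 3.79 and 5.78 with DMIOA plus retinoic acid, at 3.04, 2.06 and 4.53 with DMIOA and at 7.83, 8.05 and 7.66 in control. BGN passed the filter only through the control arrays, so its calls are read as no result, and it was at least 6-fold lower with DMIOA plus retinoic acid than in control and at least 7.19-fold lower with DMIOA. CHRD, the BMP antagonist chordin, was at least 1.35-fold lower with DMIOA plus retinoic acid than in control, with all 3 retinoic acid arrays below 5. It passed the filter through its DMIOA and control arrays alone, so its calls against either group are read as no result. With the block alone BMPER, a BMP-binding secreted protein gene, was called lower with DMIOA plus retinoic acid than with DMIOA (-1.21, adjusted p = 0.0782, blocked 0.0111) and than in control (-1.05, adjusted p = 0.0605, blocked 0.00889). Against control the block alone also called the integrin gene ITGAV (-0.78, blocked limma adjusted p = 0.00647), FSTL1, a follistatin-like protein gene (-1.21, 0.0161), and the target TGFBI (-1.15, 0.0386), whose adjusted p-values without it were 0.0794 to 0.303. TGFBI stood at 11.58, 11.63 and 9.60 with DMIOA plus retinoic acid and at 12.17, 12.29 and 11.82 in control, so its difference was largest in replicate 3. Of 4 probe sets of LTBP1, which binds latent TGF-beta, 2 were called in the same comparison with the block (0.0403 and 0.0456) and 2 were not (0.0577 and 0.0599), with log2 differences of -0.63 to -1.18. FST, the activin-binding protein follistatin, had 0.29, -0.69 and -0.40 and BAMBI, a decoy receptor, -0.03, 0.48 and 0.45, and neither passed the test. Of the BMP ligands only BMP2 and BMP6 were tested. BMP2 stood at 5.97, 6.42 and 7.63 with DMIOA plus retinoic acid, at 7.53, 4.88 and 7.72 with DMIOA and at 8.03, 8.13 and 9.25 in control (adjusted p = 0.173 between the first and the last of these groups, blocked 0.0546).

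The genes most like each member over the 9 arrays were found by Pearson's r over the tested named genes whose range was at least 1, 2881 candidates for each member. The nearest 3 of so many genes can reach a high r by being picked as the highest. These values describe 9 points that share 3 treatments and 3 replicate numbers. TGFB1 was most like IL16 (r = 0.980), KRT14 (0.969) and RBM38 (0.968), and TGFB2 like CD69L (0.943), GNB1L (0.941) and CTNS (0.934). The first TGFB3 probe set was most like TMEM9B (0.972), TSPAN2 (0.960) and MYLIP (0.959), and the second like GRM3 (0.976), MPP6 (0.972) and TMEM9B (0.967). Both INHBA probe sets had the same 3 nearest genes, FGD3, ADCY2 and SEPTIN5 (0.982, 0.981 and 0.978 for the first). SMAD7 was most like YOD1 (0.981), FRY (0.979) and CD9 (0.975). Among the ID genes, ID4 was most like RFTN2 (0.977), LMO7 (0.969) and IQGAP3 (0.969), ID1 like ST3GAL5 (0.943), GPR146 (0.920) and GK5 (0.914), and ID3 like SOX4 (0.932), GNPDA2 (0.927) and TMCC2 (0.890). Both ID2 probe sets had SNX5 and the growth factor gene PDGFA among their 3 nearest (0.962 and 0.950 for the first, with KIAA1462 between them at 0.956). ACVR2B had the lowest likeness, with RTN1 (0.884), CYP27C1 (0.864) and KITLG (0.830). No member was among the 3 genes nearest to another.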

How the data were processed

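Expression was measured on 9 1-colour Affymetrix chicken arrays. The values are log2 expression per probe set, which the authors deposited after GCRMA; the submitters' processing notes name this method without version or settings. Per the labels' protocols, RNA was extracted with TriZol and labelled by a 3' in vitro transcription kit. GCRMA corrects background by probe sequence and normalizes between arrays; array medians were 2.49 to 2.54. No scanner files or detection calls were used.

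Symbols came from the platform annotation, in which 27178 probe sets had 1 symbol, 177 several and 11180 none; the 10 member genes matched RefSeq by gene ID. Coordinates and sequences were not analysed here. Of 37693 chicken probe sets, the 12329 that reached 5 (log2) in 3 or more arrays were tested in limma 3.58.1 (R 4.3.3), all 9 arrays with a mean per group, 6 residual degrees of freedom (4 with the block), and Benjamini-Hochberg adjustment over all 12329. Folds written "at least" come from a group with values below 5, each of which was set to 5. Errors are SD over arrays or SE of the fit. The number of arrays limits the precision.

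Same-numbered samples of different groups deviated together (r = 0.375 to 0.857 over 9 pairs, each above 0.1). The replicate numbers were taken to pair the samples, which the labels do not state. For replicates 1 and 2, same-numbered pairs gave 0.375 to 0.730 and crossed pairs 0.321 to 0.668. These ranges overlap and replicate 3 stood apart in every group, so the values cannot tell whether replicates 1 and 2 pair by number. Blocked values stand beside a result where they change its call, and beside others for comparison. Every member probe set is described. Pathway genes are named when called in the fit with or without the block, or from a fixed set of well-known genes, and the 3 most alike genes by correlation. The members, the pathway list and the markers were chosen with earlier results of these data known, and some of the listed genes had already been seen to change, so their counts are descriptions.

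Each fit was first tested on simulated arrays with known changes. The fit without the block found 31.2 to 36% of 2-fold and 69.6 to 74% of 4-fold changes. Of its calls 0.383 to 0.596% were false. With the block the fit found 59.6 to 60.8% and 87.4 to 89.8%, and 4.46 to 5.99% of its calls were false. A gene that did not pass the test may thus still have changed 2-fold. The simulated arrays were given replicate effects and a spread from the blocked fit, so they cannot show whether the block is right for these data. Alternatives covered the filter, median centring, cyclic loess, array weights, a variance trend on intensity (robust), the 2 groups alone, the replicate block, replicates 1 and 2 alone and leaving out each array.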

Additional observations from a re-analysis of the deposited data

How the results depend on the processing

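Counts of called probe sets are given here for DMIOA plus retinoic acid against DMIOA, DMIOA against control, and DMIOA plus retinoic acid against control, in that order. With all arrays and no block limma called 479, 18 and 1623 in all and 2, 0 and 5 of the 13 members. With the replicate block the counts were 1336, 159 and 3546 in all and 5, 2 and 8 members. With replicates 1 and 2 alone they were 1517, 172 and 3620 in all and 5, 1 and 8 members, and with array weights 1232, 269 and 8317 in all and 5, 2 and 11 members. With only the 2 groups compared they were 216, 0 (1137 at an unadjusted p under 0.05) and 1666 in all and 1, 0 and 6 members. An intensity trend with a robust prior gave 11 probe sets between DMIOA and control. Leaving out each array gave 146 to 602, 0 to 39 and 546 to 1997 in all and 1 to 2, 0 and 2 to 7 members, or with the block 371 to 1560, 0 to 398 and 1343 to 3898 in all and 4 to 6, 0 to 2 and 3 to 8 members. With no block, the lowest member counts were those without retinoic acid replicate 1 or 2 in the first comparison, and without these or control replicate 1 or 2 in the last. Cyclic loess changed the split of higher and lower calls to 228 and 251 in the first comparison, against 261 and 218, and to 612 and 935 in the last, against 831 and 792.

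Of the single members' differences under the alternatives, 933 kept direction and side of the threshold, 80 gained a call, 27 lost one and 10 changed sign. The sign changes were those of TGFB2 against DMIOA (-0.034 with array weights, -0.21 without DMIOA replicate 2, -0.0934 with the replicate block and without that array, -0.14 without retinoic acid replicate 3, and up to 0.36 without DMIOA replicate 3), ID3 against control with DMIOA plus retinoic acid (-0.22 with array weights, -0.26 with replicates 1 and 2, -0.16 and -0.11 without control replicate 3 and without or with the block, -0.15 with the block and without retinoic acid replicate 3, and up to 0.53 with the block and without control replicate 2) and ACVR2B in the same comparison (0.0538 without control replicate 1, -0.24 without retinoic acid replicate 1). None of these was called; the cause was not tested. Values of ACVR2B near 5 limit what can be read from it.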
